A study of Mus musculus with 28 samples.

Results

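MHC class II antigen presentation was followed through 10 genes: the classical chain genes H2-Aa, H2-Ab1 and H2-Eb1, the invariant chain gene Cd74, the peptide-editing genes H2-DMa, H2-DMb1, H2-Oa and H2-Ob, the protease gene Ctss and the transactivator gene Ciita. The genes were chosen by name, and of several probe sets for a gene the one of highest mean on the array type was used. Of the 10, 9 had a probe set annotated to a single gene on each of the array types, among 19928 genes for liver and quadriceps and 30063 for heart and gastrocnemius. These were 8 genes in both tables, Cd74 in liver and quadriceps only, and H2-DMb1 in heart and gastrocnemius only. The remaining probe sets carry 2 symbols, H2-DMb2 with H2-DMb1 in liver and quadriceps and Cd74 with Mir5107 in heart and gastrocnemius, and they stayed out of every count of the 9.

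The RNA came from female mice of the inbred strain C57BL/6J, group-housed on chow and fasted overnight, with no further treatment or engineered allele named in the labels. Animals aged 6 months (24 weeks) were set against animals aged 24 months (103 weeks), to profile metabolic tissues of young and old mice. There were 3 arrays per age for liver and for quadriceps (thigh muscle), and, on a different array type, 4 per age for heart and for gastrocnemius (calf muscle), which makes 28. Whether arrays of a group stand for separate animals is not stated in the labels, so each p-value measures only the spread between these samples.

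Class II molecules are pairs of an alpha and a beta chain that carry peptides from engulfed material to the cell surface, where CD4 T cells read them. Dendritic cells, B cells and macrophages make them constitutively, while hepatocytes and muscle fibres make little, so that in whole tissue the transcripts come largely from resident and passing immune cells. The invariant chain fills the groove until proteases such as cathepsin S trim it, H2-M (encoded by H2-DMa and H2-DMb genes) exchanges the remnant for peptide, and H2-O restrains H2-M, most of all in B cells. In whole tissue, fewer or more cells of a type and less or more RNA per cell cannot be told apart.

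Most of these genes share a promoter module in which an X box is bound by the RFX complex and a Y box, an inverted CCAAT sequence, by NF-Y, with CIITA docking on both. The members were chosen by name and not by this control, and promoters are shown before levels. RefSeq promoter windows on GRCm38.p6, each 300 bases from 250 before to 50 after a gene's start, were at hand for 7 of the 10 genes. In 5 of them the letters GNAAC, as found within an X box, were followed by ATTGG, the core of a Y box, after a gap of 25 to 28 bases, with ATTGG lying 43 to 61 bases before the start. Capitals mark the matches to the searched letters, and each stretch is written 5′ to 3′ on the gene's own strand.
H2-Aa, chr17:34287857-34287914, minus strand: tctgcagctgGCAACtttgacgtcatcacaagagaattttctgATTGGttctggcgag
H2-Eb1, chr17:34305766-34305822, plus strand: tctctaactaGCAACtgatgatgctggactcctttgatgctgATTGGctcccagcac
H2-DMb1, chr17:34153087-34153144, plus strand: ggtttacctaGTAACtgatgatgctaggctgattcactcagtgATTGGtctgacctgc
H2-Oa, chr17:34092293-34092350, plus strand: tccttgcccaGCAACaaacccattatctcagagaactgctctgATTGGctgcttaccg
H2-Ob, chr17:34238808-34238862, plus strand: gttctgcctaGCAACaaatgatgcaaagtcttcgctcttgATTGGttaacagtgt
The letters and the allowed gap of 15 to 45 bases were chosen after the sequences had been seen. Both strands were searched, and the pair was found in 4.93% of all 32851 promoter windows and ATTGG alone in 37.4%. The windows of H2-DMa and Ctss did not hold the pair. A match is a description of the letters and not a measured binding site.

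The values are log2 expression levels as the authors deposited them. Levels can be compared between samples for one probe set, but not between probe sets or between the array types. Replicate arrays correlated at 0.9846 or above within liver and 0.992 or above within the other tissues, and no pair of arrays was identical. Tissue labels matched their defining genes: the hepatocyte gene Alb was higher in liver than in quadriceps, the fast-muscle myosin gene Myh4 was higher in each muscle than in liver or heart, and the heart myosin gene Myh6 was higher in heart than in gastrocnemius. Alb also varied outside the liver, from 7.58 to 11.91 over the quadriceps arrays and from 4.73 to 9.54 over the heart arrays. The interquartile range of log2 values was narrower in the 24-month liver arrays (2.27 to 2.54) than in the 6-month ones (2.64 to 2.70). No depth applies to arrays, and their small number limits the precision.

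None of the 9 class II genes passed an adjusted p of 0.05 (limma, Benjamini-Hochberg over all genes) between 24 and 6 months in any tissue. In liver, 0 of 9 passed and 0.326% of all genes did. In quadriceps, 0 of 9 passed against 0.00502% of all genes, in heart 0 of 9 against 0.00665%, and in gastrocnemius 0 of 9 against 0.00998%. At an unadjusted p under 0.05 the counts were 2 of 9 in liver (32.8% of all genes), 0 in quadriceps (7.06%), 0 in heart (5.99%) and 1 in gastrocnemius (16.5%).

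The means leaned upward with age in 3 tissues and not in the fourth. All 9 means were higher at 24 months in liver (54.3% of all genes), heart (55.3%) and gastrocnemius (55%), and 2 of 9 were higher in quadriceps (52.3%). The median log2 difference over the 9 genes was 0.19 in liver, 0.10 in heart, 0.24 in gastrocnemius and -0.04 in quadriceps. The medians over all genes were 0.03, 0.01, 0.02 and 0.01 in the same order. With arrays centred the liver median was 0.10 and 7 of 9 means were higher, while the median over all liver genes was -0.06. After quantile or loess normalization the liver median was 0.26, with 9 of 9 higher and a median of 0.00 over all genes. Without the 24-month replicate 2 array the heart median was 0.05, with 7 of 9 higher and 0.0025 over all genes.

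**Figure D1:**
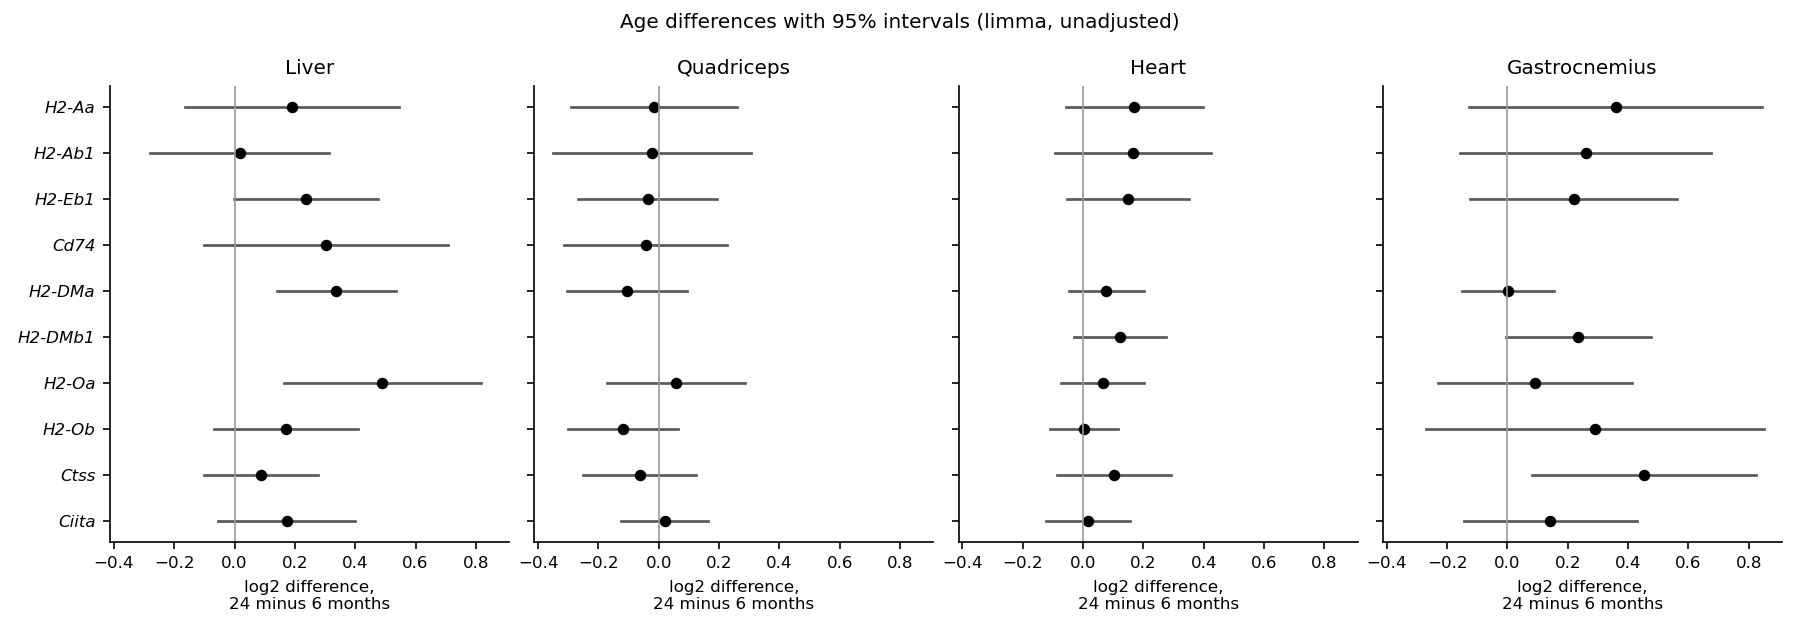
Log2 difference between 24 and 6 months for each class II gene in 4 tissues, with the unadjusted 95% interval from limma as a bar. Intervals that lie wholly above 0 are those of H2-DMa and H2-Oa in liver and Ctss in gastrocnemius, and the gaps are genes whose probe set carries 2 symbols.

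In liver, H2-Oa and H2-DMa had the largest differences. At 6 months they averaged 5.57 and 6.56, below the liver median of all values (6.72), and H2-Oa stayed below it at 24 months (6.06). The old liver arrays also had a narrower range of values, and its part in these differences was not tested. H2-DMa, the alpha chain of the H2-M editor, read 6.56, 6.55 and 6.56 at 6 months and 7.01, 6.92 and 6.75 at 24 months. Every old array lay above every young one, with a log2 difference of 0.34 (SE 0.09, limma adjusted p = 0.0616). The 3 young arrays had an SD of 0.00577, against 0.13 for the old ones.

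H2-Oa, the alpha chain of the H2-M inhibitor, read 5.44, 5.61 and 5.67 at 6 months and 6.41, 5.91 and 5.87 at 24 months in liver. The groups again did not overlap, and the difference was 0.49 (SE 0.14, adjusted p = 0.0721 by limma). H2-Ob, the beta chain of the same inhibitor, read 6.52, 6.48 and 6.39, then 6.85, 6.50 and 6.55, and its groups overlapped (difference 0.17, adjusted p = 0.277 by limma). The probe set shared by H2-DMb2 and H2-DMb1 read 6.96, 7.04 and 7.03, then 7.64, 6.98 and 7.06. Its difference of 0.22 (limma adjusted p = 0.381, over all probe sets) came with the high value of old replicate 1.

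Among the classical chains in liver, only H2-Eb1, a beta chain, separated by age. It read 8.36, 8.26 and 8.19 at 6 months and 8.72, 8.40 and 8.40 at 24 months (difference 0.24, SE 0.11, limma adjusted p = 0.156). H2-Aa, the I-A alpha chain, read 9.20, 8.99 and 8.93, then 9.60, 8.96 and 9.13 (difference 0.19, limma adjusted p = 0.406). H2-Ab1, its beta partner, read 8.90, 8.69 and 8.67, then 9.04, 8.53 and 8.74, and its difference was 0.02 (95% interval -0.28 to 0.31). With H2-DMa and H2-Oa this made 3 of 9 genes whose old arrays all lay above the young ones, where 18.7% of all liver genes did so.

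Cd74 in liver, the invariant chain that escorts new class II dimers, read 9.31, 9.12 and 8.98 at 6 months and 9.89, 9.22 and 9.21 at 24 months. The 2 lower old arrays fell inside the young range, and the difference was 0.30 (SE 0.18, limma adjusted p = 0.256). Ctss, the cathepsin that trims the invariant chain, read 7.91, 7.84 and 7.88, then 8.09, 7.91 and 7.89 (difference 0.09, limma adjusted p = 0.478). Ciita, the transactivator that switches the class II genes on, read 6.27, 6.24 and 6.15, then 6.59, 6.27 and 6.32 (difference 0.17, limma adjusted p = 0.249).

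One liver array was the highest for every member. The 24-month replicate 1 array held the maximum of all 9 genes, where it held that of 29.0% of all liver genes. Its mean over the 9 genes stood 0.48 above the 6-month mean, and those of the other old arrays 0.08 and 0.11. Without it the median difference was 0.08 and 8 of 9 means were higher. H2-Aa then differed by 0.01, Cd74 by 0.08 and H2-Ab1 by -0.12, while H2-DMa kept 0.28 and H2-Oa 0.32 (limma adjusted p = 0.159 and 0.155). H2-DMa and H2-Oa passed the threshold when the 24-month replicate 3 array was left out instead, at 0.41 and 0.59, when 25.5% of all genes passed too.

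**Figure D2:**
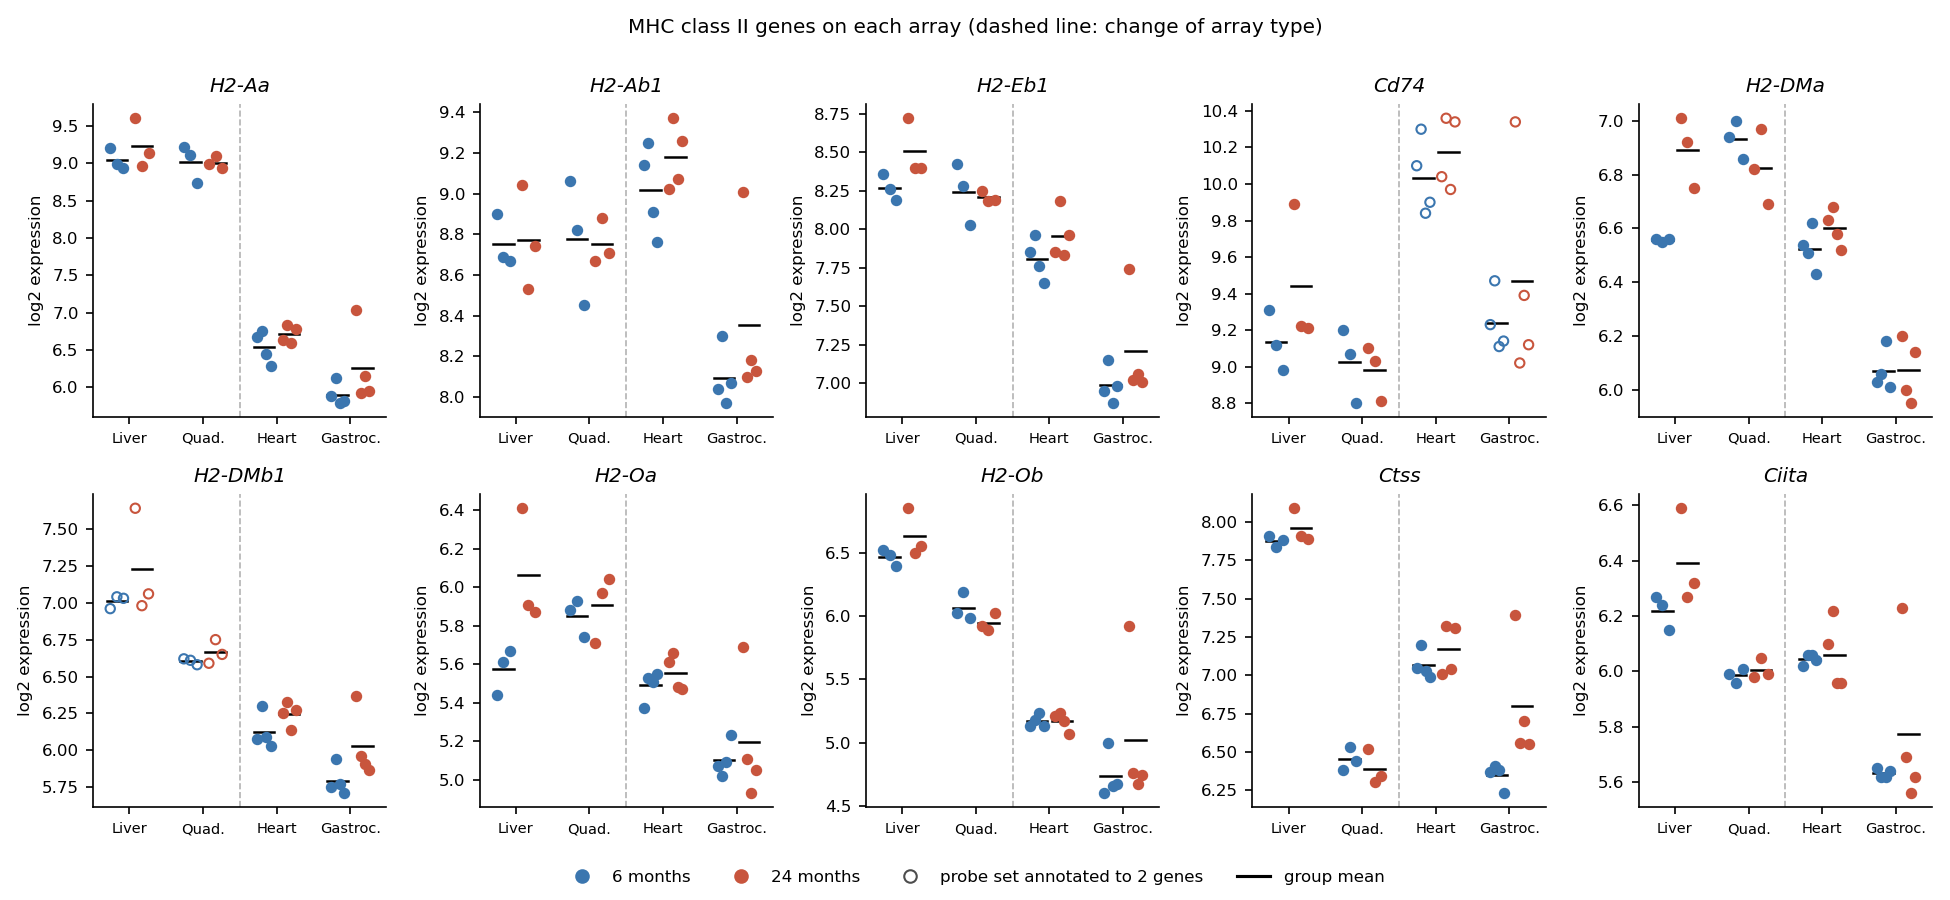
Deposited log2 expression of the 10 genes on each array, by tissue and age, with group means as lines; each panel has its own axis and open points are probe sets annotated to 2 genes. A single 24-month point stands above the others in many liver and gastrocnemius columns, as for H2-Ab1 in gastrocnemius at 9.01 against 7.97 to 8.30 elsewhere.

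In gastrocnemius the upward lean also came with a single array. H2-Aa read 5.89, 6.12, 5.79 and 5.82 at 6 months and 7.03, 5.93, 6.15 and 5.95 at 24 months. H2-Ab1 read 8.04, 8.30, 7.97 and 8.07, then 9.01, 8.10, 8.18 and 8.13. In both, only replicate 1 of the old arrays lay far above the rest, which overlapped between the ages. H2-Eb1 read 6.95, 7.15, 6.87 and 6.98, then 7.74, 7.02, 7.06 and 7.01, in the same pattern. The 3 classical chains differed by 0.36, 0.26 and 0.22 with all arrays (limma adjusted p = 0.437, 0.510 and 0.498) and by 0.11, 0.04 and 0.04 without that array.

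The inhibitor chain genes were high on the same array. H2-Ob read 4.60, 5.0, 4.66 and 4.67 at 6 months and 5.92, 4.76, 4.67 and 4.74 at 24 months. H2-Oa read 5.07, 5.02, 5.09 and 5.23, then 5.69, 5.11, 4.93 and 5.05. Their differences of 0.29 and 0.09 (limma adjusted p = 0.592 and 0.785) became -0.01 and -0.07 without the 24-month replicate 1 array. Ciita read 5.65, 5.62, 5.62 and 5.64, then 6.23, 5.69, 5.56 and 5.62, and its difference went from 0.14 (adjusted p = 0.607 by limma) to -0.01.

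Of the H2-M chain genes in gastrocnemius, H2-DMa had almost the same mean at both ages. It read 6.03, 6.06, 6.18 and 6.01 at 6 months and 6.20, 6.00, 5.95 and 6.14 at 24 months, with a difference of 0.00 (95% interval -0.15 to 0.15). Its old replicate 1 array stood barely above the highest young one. H2-DMb1, the beta chain, read 5.75, 5.94, 5.77 and 5.71, then 6.37, 5.96, 5.91 and 5.87, with a difference of 0.24 (SE 0.11, limma adjusted p = 0.310) and 0.12 without replicate 1. The probe set shared by Cd74 and Mir5107 read 9.23, 9.47, 9.11 and 9.14, then 10.34, 9.02, 9.39 and 9.12, again high on 1 old array (difference 0.23, limma adjusted p = 0.734 over all probe sets).

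Ctss was the member of gastrocnemius whose groups did not overlap. It read 6.37, 6.41, 6.38 and 6.23 at 6 months and 7.39, 6.56, 6.70 and 6.55 at 24 months. The difference was 0.45 (SE 0.17, limma adjusted p = 0.232), or 1.37-fold. Without the highest array it was 0.26 (limma adjusted p = 0.162), and the 3 remaining old arrays still lay above all young ones. This was 1 of 9 genes, where 3.86% of all gastrocnemius genes had every old array above every young one.

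The 24-month replicate 1 array of gastrocnemius was the highest for all 9 genes (19.8% of all genes). Its mean over the members stood 0.77 above the 6-month mean, against 0.04 to 0.05 for the other 3 old arrays. Without it 5 of 9 means were higher at 24 months and the median difference was 0.04.

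**Figure D3:**
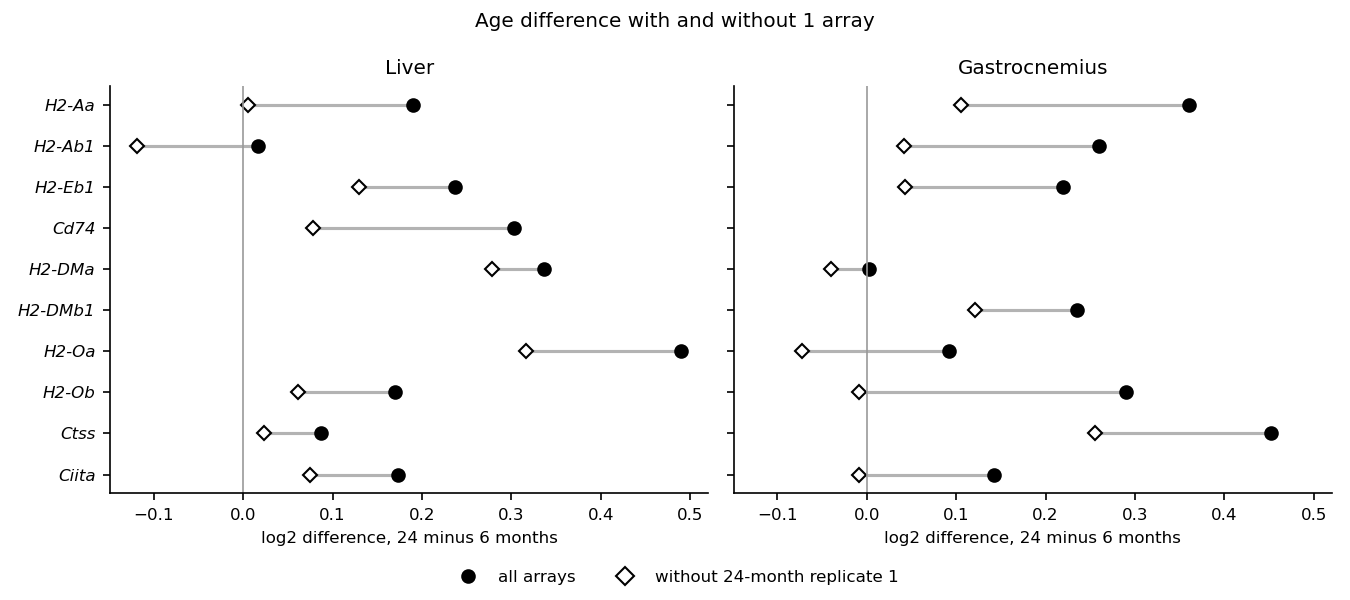
Log2 age difference of each class II gene with all arrays (filled) and without the 24-month replicate 1 array (open), in liver and gastrocnemius. The open points lie to the left of the filled ones for every gene shown, and those of Ctss in gastrocnemius and of H2-DMa and H2-Oa in liver lie at 0.26, 0.28 and 0.32.

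Immune-cell genes were high on the same arrays. On the gastrocnemius 24-month replicate 1 array the mean of 8 measured B cell markers stood 1.02 above the 6-month mean, that of 7 pan-leukocyte genes 1.02, of 10 T and NK cell markers 0.42, of 16 macrophage and monocyte markers 0.33 and of 11 dendritic cell markers 0.26. The array was the highest for 8 of 8 B cell, 7 of 7 pan-leukocyte, 8 of 10 T and NK, 10 of 16 macrophage and 7 of 11 dendritic cell genes. It was the highest for 0 of 5 endothelial markers and for 19.8% of all genes. The B cell surface marker Ms4a1 read 5.91 there and 3.84 to 4.54 elsewhere, and Cr2, the complement receptor of mature B cells and follicular dendritic cells, 5.21 against 3.60 to 3.98. Ptprc, the common leukocyte antigen, read 6.72 against 4.67 to 5.40.

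As whole lists in gastrocnemius, the mean level of the B cell markers ranged from 4.96 to 5.21 on the 6-month arrays and from 4.92 to 6.05 on the 24-month arrays. That of the pan-leukocyte genes ranged from 5.56 to 5.94 and from 5.68 to 6.72. No marker is at 0 on this scale, on which unexpressed probe sets keep a low positive value. The median age difference of the B cell list was 0.24 with all arrays and 0.01 without replicate 1, and that of the pan-leukocyte list 0.22 and 0.02. What part these cells have in the class II values was not tested.

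The liver 24-month replicate 1 array showed the same company at smaller size. B cell markers averaged 0.53 above the 6-month mean, T and NK cell markers 0.44, pan-leukocyte genes 0.39, dendritic cell markers 0.29 and macrophage markers 0.21. The array was the highest for 8 of 8 B cell, 8 of 8 pan-leukocyte, 12 of 15 macrophage, 7 of 10 T and NK and 7 of 11 dendritic cell genes (29.0% of all genes). The B cell list ranged from 5.39 to 5.74 at 6 months and from 5.70 to 6.12 at 24 months, and the pan-leukocyte list from 7.02 to 7.08 and from 7.13 to 7.44. Ms4a1 in liver differed by only -0.01 between the ages, while Cd22, an inhibitory co-receptor of B cells, differed by 0.38 (limma adjusted p = 0.0759). The same array had the narrowest interquartile range of the liver arrays (2.27). The B cell list lay below the liver median of all values (6.72) and the pan-leukocyte list above it. Neither the part of the narrower range nor the share of these cells in the liver values was tested.

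**Figure D4:**
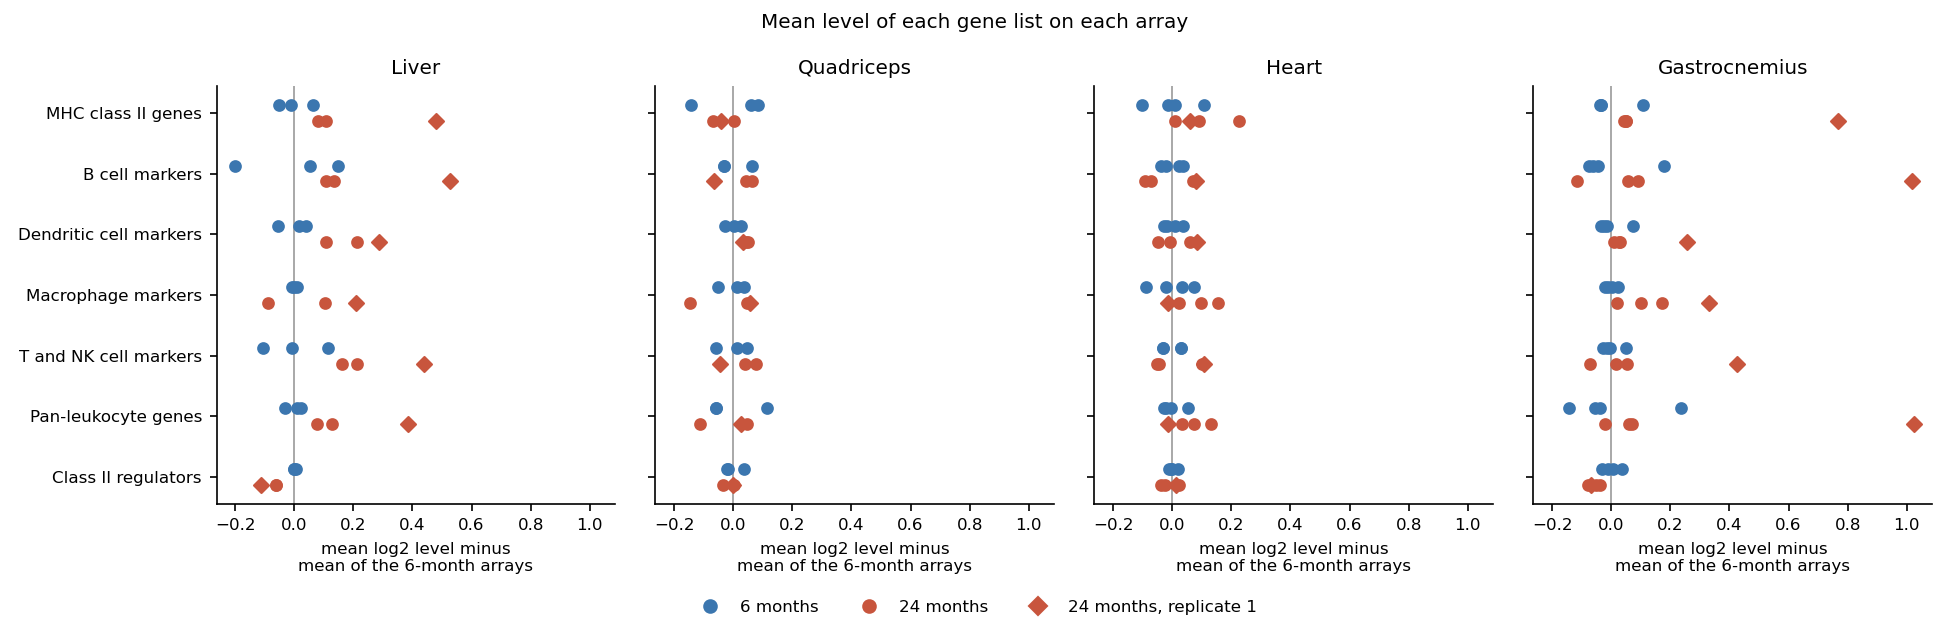
Mean log2 level of the class II genes and of 6 gene lists on each array, minus the mean of the 6-month arrays of that tissue, with the 24-month replicate 1 arrays as diamonds. In gastrocnemius the diamond lies at 0.77 for the class II genes and 1.02 for B cell markers, while the class II regulators stay near 0.

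By limma, 0 genes of the 5 immune cell lists passed the adjusted threshold in any tissue. At an unadjusted p under 0.05, 2 B cell, 4 dendritic cell, 1 macrophage, 5 T and NK cell and 3 pan-leukocyte genes were higher in liver (18.4% of all genes). In liver the smallest adjusted p-values were those of Flt3, the growth factor receptor of dendritic cells (0.46, limma adjusted p = 0.0543), Cd5, a T cell surface receptor (0.55, limma adjusted p = 0.0553), and Coro1a, a leukocyte actin regulator (0.35, limma adjusted p = 0.0575). Means were higher at 24 months for 9 of 11 dendritic cell markers, 10 of 10 T and NK cell markers and 10 of 15 macrophage markers in liver, against 54.3% of all genes. In gastrocnemius 14 of 16 macrophage markers were higher, 5 of them at an unadjusted p under 0.05 (7.44% of all genes), led by the scavenger receptors Mrc1 (0.41, adjusted p = 0.0734 by limma) and Cd163 (0.50, adjusted p = 0.103 by limma). These kept 0.38 and 0.52 without the replicate 1 array, and the list's median went from 0.15 to 0.09.

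More regulators of class II transcription had lower than higher means at 24 months in liver and gastrocnemius. Of all genes, 54.3% and 55% had higher means in these tissues. This list of RFX and NF-Y subunits, CREB1, the interferon-gamma pathway and the cytokine gene Il10 had 15 of its 16 genes measured. By limma 0 passed the adjusted threshold in any tissue. At an unadjusted p under 0.05, 3 of 15 differed in liver, 1 in quadriceps, 0 in heart and 4 in gastrocnemius, against 32.8%, 7.06%, 5.99% and 16.5% of all genes. In liver 11 of 15 means were lower at 24 months, with a median of -0.09 against 0.03 over all genes. With dim genes left out the median of all liver genes was -0.09, and the list's median was not taken under that setting. Among the 11 was Rfxank, a subunit of the RFX complex, at -0.30 (limma adjusted p = 0.0691). Socs1, an interferon-induced inhibitor of the same pathway, went the other way by 0.34 (limma adjusted p = 0.0919). In gastrocnemius 10 of 15 were lower (median -0.06), with the NF-Y subunit Nfyc at -0.21 (limma adjusted p = 0.113) and the interferon receptor chain Ifngr2 at -0.30 (limma adjusted p = 0.167). In quadriceps and heart the medians were 0.00 and -0.01. The replicate 1 arrays that were high for the class II genes were the highest for 0 of 15 regulators in liver (29.0% of all genes) and 3 of 15 in gastrocnemius (19.8%).

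Other genes of peptide loading and of T cell recognition gave no call either. Of 11 processing genes, which include lysosomal cathepsins, Lgmn and Ifi30, 8 were higher in liver, 3 in quadriceps, 6 in heart and 5 in gastrocnemius. Over all genes the shares were 54.3%, 52.3%, 55.3% and 55% in the same order. Ifi30, the lysosomal thiol reductase, read lower at 24 months in quadriceps (-0.40, limma adjusted p = 0.580) and gastrocnemius (-0.26, adjusted p = 0.387 by limma) and higher in heart (0.17, adjusted p = 0.788 by limma). Of 12 co-stimulation genes, 7, 8, 4 and 10 were higher in liver, quadriceps, heart and gastrocnemius, against the same shares of all genes. Cd28, the T cell receptor for B7 ligands, differed by 0.43 in liver (limma adjusted p = 0.0927) and 0.40 in quadriceps (limma adjusted p = 0.671).

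In heart the class II genes differed little between the ages. H2-Aa read 6.67, 6.75, 6.45 and 6.29 at 6 months and 6.64, 6.83, 6.59 and 6.78 at 24 months. H2-Ab1 read 9.14, 9.25, 8.91 and 8.76, then 9.02, 9.37, 9.07 and 9.26, and H2-Eb1 7.85, 7.96, 7.76 and 7.65, then 7.85, 8.18, 7.83 and 7.96. All 3 overlapped, with differences of 0.17, 0.17 and 0.15 (limma adjusted p = 0.928, 0.950 and 0.931). Across the 9 genes the differences ran from 0.00 for H2-Ob to 0.17 for H2-Aa, all with a limma adjusted p of 0.908 or above, and 0 of 9 had groups apart (1.94% of all genes had every old array above every young one). Under quantile, loess and median scaling H2-Ob and Ciita turned slightly negative, leaving 7 of 9 higher. The 24-month replicate 2 array was the highest for 8 of 9 members (18.7% of all genes).

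The 95% intervals in heart reached at most 0.42 (H2-Ab1) and down to -0.12. The probe set of Cd74 and Mir5107 read 10.10, 10.30, 9.84 and 9.90, then 10.04, 10.36, 9.97 and 10.34, a difference of 0.14. Ctss read 7.05, 7.20, 7.03 and 6.99, then 7.01, 7.32, 7.04 and 7.31, and its groups overlapped at a difference of 0.10. In the same hearts 11 of 16 macrophage markers and 3 of 8 B cell markers had higher means at 24 months (55.3% of all genes). The list medians were 0.05 and -0.01.

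In quadriceps the differences were small and mostly downward. H2-Aa read 9.21, 9.11 and 8.74 at 6 months and 8.99, 9.09 and 8.93 at 24 months, and Cd74 9.20, 9.07 and 8.80, then 9.10, 9.03 and 8.81. H2-DMa, which had separated in liver, read 6.94, 7.0 and 6.86, then 6.82, 6.97 and 6.69, with overlap (difference -0.11, limma adjusted p = 0.844). Over the 9 genes the differences ran from -0.12 for H2-Ob to 0.06 for H2-Oa, the limma adjusted p was 0.807 or above, and every 95% interval lay between -0.35 and 0.31. No member had its groups apart (6.69% of all genes had every old array higher). The young replicate 3 array was the lowest of the 6 for H2-Aa, H2-Ab1, H2-Eb1 and Cd74, and the members' median was -0.14 without it and 0.05 without replicate 1.

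Whether the age difference itself differed between tissues was tested as an interaction within each table. Between liver and quadriceps 0 of 9 genes passed (0.0151% of all genes) and 2 of 9 had an unadjusted p under 0.05 (19.8%), with H2-DMa closest at 0.44 log2 units (SE 0.12, limma adjusted p = 0.115), followed by H2-Oa at 0.43 (SE 0.19, limma adjusted p = 0.229). H2-DMa passed when the 24-month replicate 3 liver array was left out, as did 7.34% of all genes. Between heart and gastrocnemius 0 of 9 passed (0.595% of all genes), as did 0 of 9 at an unadjusted p under 0.05 (13.8%), with Ctss closest at -0.35 (SE 0.20, limma adjusted p = 0.469). The members' median there was -0.11, and 0.065 without the gastrocnemius 24-month replicate 1 array.

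Between tissues members did pass the threshold, as most genes did. At 6 months 8 of 9 members were higher in heart than in gastrocnemius at an adjusted p under 0.05 (75.5% of all genes differed and 60.8% were higher in heart). H2-Ab1 averaged 9.02 in heart and 8.10 in gastrocnemius, a difference of 0.92 (SE 0.17, 1.89-fold, limma adjusted p = 0.000116). H2-Eb1 differed by 0.82, Ctss by 0.72, H2-Aa by 0.64 and H2-DMa by 0.46. H2-Ob missed the threshold (0.44, limma adjusted p = 0.0550).

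The deposited heart values lie higher as a whole, with a median difference of 0.27 over all genes. After quantile normalization or centring of the arrays 4 of 9 members remained past the threshold, where 62% and 63.4% of all genes passed. H2-Aa, H2-DMb1, H2-Oa and Ciita dropped out, with differences of 0.32, 0.02, 0.05 and 0.10 after quantile normalization, and H2-Ab1, H2-Eb1, Ctss and H2-DMa stayed.

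Liver and quadriceps, by contrast, had the classical chains at nearly one level. H2-Aa averaged 9.04 and 9.02, H2-Ab1 8.75 and 8.78, and H2-Eb1 8.27 and 8.24, with SEs of the difference of 0.15, 0.15 and 0.11, and Cd74 differed by 0.11 (SE 0.17). Here 4 of 9 members passed (68.2% of all genes), 3 higher in liver (40.7%) and 1 lower (27.5%). Ctss was 1.43 higher in liver (SE 0.08, 2.69-fold, limma adjusted p = 1.5e-09), H2-Ob 0.40 higher (limma adjusted p = 0.00211) and Ciita 0.23 higher (limma adjusted p = 0.0238). H2-DMa was the exception in direction, lower in liver by 0.38 log2 units (-0.38, limma adjusted p = 0.00167).

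Scaling moved the smaller of these values. Quantile normalization turned H2-Aa, H2-Eb1 and Cd74 to -0.31, -0.30 and -0.22, ended the call of Ciita (0.15) and added calls for H2-Oa (-0.37) and H2-Eb1 (limma adjusted p = 0.0186 and 0.0294), making 5 of 9 where 69.6% of all genes passed. Centring kept 4 of 9 (68.7% of all genes), with H2-Oa in place of Ciita. The order of the classical chains between liver and quadriceps is therefore not fixed by these values, while Ctss and H2-Ob in one direction and H2-DMa in the other passed under both scalings tried.

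**Figure D5:**
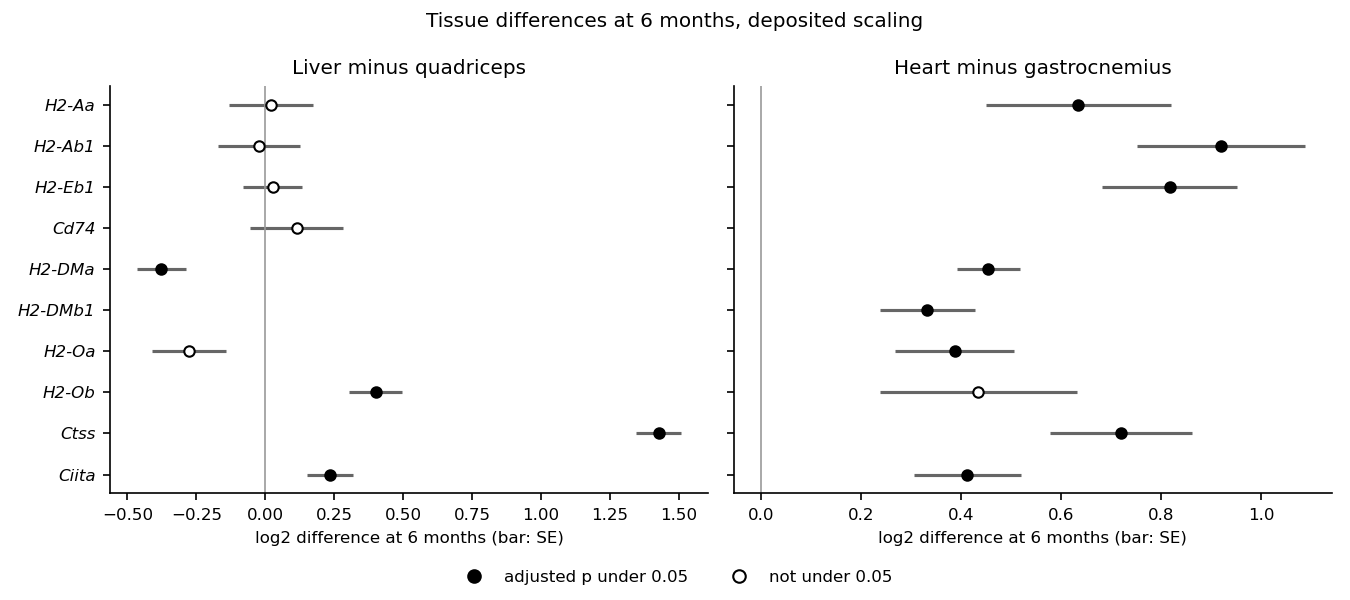
Log2 difference between tissues at 6 months for each class II gene, with its SE as a bar; filled points have a limma adjusted p under 0.05. In liver against quadriceps Ctss lies at 1.43 and the classical chains near 0, and in heart against gastrocnemius every point lies above 0 on the deposited scale.

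H2-Ea, the alpha partner that I-E needs, is not a member and was looked at after the values were seen, because C57BL/6 mice carry a defective copy and make no I-E protein. Its probe set read 5.10 to 5.24 in liver, 4.93 to 5.34 in quadriceps, 4.70 to 5.09 in heart and 4.27 to 4.62 in gastrocnemius, and its age differences missed the threshold in all 4 tissues (limma adjusted p = 0.555 or above).

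Within tissue and age groups the members did not all vary together. After each group of arrays was centred on its mean, a gene was set against the mean of the other core genes (H2-Aa, H2-Ab1, H2-Eb1 and, where measured, Cd74). These were 18 relations over 12 or 16 arrays that may share their normalization. Those in heart and gastrocnemius were repeated over 15 arrays, without the gastrocnemius 24-month replicate 1 array, a choice made after seeing the data. Adjusted p-values were taken within each table and set of arrays. The permutations shuffled centred values over all arrays. Centring ties the values of a group, and groups differ in spread, so these permutation p-values may be too small. How many of all genes reach such an r was not counted, so the p-values do not set members apart from other genes. In heart and gastrocnemius H2-Ab1 followed the others with r = 0.989 and rho = 0.977 over 16 arrays (permutation p = 1e-05 for each, the smallest that can be given, adjusted p = 1.8e-05 and 3e-05). Without the 2 farthest arrays r was 0.976. H2-DMa had r = 0.42 and rho = 0.344 (permutation p = 0.1 and 0.19, adjusted p = 0.1 and 0.19), and 0.181 without the 2 farthest arrays.

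Ctss and H2-DMb1 kept a relation to the core genes without the gastrocnemius 24-month replicate 1 array, at r = 0.743 and 0.792 over 15 arrays (rho = 0.696 and 0.604, permutation p = 0.0021 and 0.00041, adjusted 0.0038 and 0.00092). Ciita had r = 0.811 and rho = 0.564 with that array (permutation p = 0.0015 and 0.024, adjusted p = 0.0019 and 0.031) and r = 0.193 and rho = 0.0269 without it (permutation p = 0.5 and 0.93). H2-Ob went from 0.866 to 0.385 and H2-Oa from 0.695 to -0.22. For these 3 genes the relation in heart and gastrocnemius rests on that array. In liver and quadriceps, over 12 arrays, Ciita had r = 0.722 and rho = 0.62 (permutation p = 0.0074 and 0.035, adjusted p = 0.013 and 0.053) and r = 0.789 without the 2 farthest arrays. H2-Ob had r = 0.699 and rho = 0.708 there (permutation p = 0.011 and 0.012, adjusted p = 0.016 and 0.022), and 0.439 without the 2 farthest. H2-Oa had r = 0.547 and rho = 0.336 (permutation p = 0.065 and 0.29, adjusted p = 0.073 and 0.33), and 0.157 without them.

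The genes whose centred values most resembled the core genes were named by a rule, as a description without a test. In heart and gastrocnemius they were Lcp2, a T cell and myeloid signalling adaptor (r = 0.971, rho = 0.947), Lcp1, the leukocyte plastin (r = 0.962, rho = 0.914), and Cyth4, a cytohesin (r = 0.954, rho = 0.890), over 16 arrays. Without the gastrocnemius 24-month replicate 1 array r was 0.896, 0.873 and 0.891. In liver and quadriceps the 3 were the olfactory receptor genes Olfr1044 (r = 0.959, rho = 0.956), Olfr46 (r = 0.958, rho = 0.951) and Olfr981 (r = 0.944, rho = 0.923) over 12 arrays. These are genes of the nasal epithelium. Their age differences were between -0.03 and 0.16 in liver and quadriceps, none past the threshold (limma adjusted p = 0.215 or above). Their r lay above those of H2-Ab1 (0.904) and Ciita (0.722) with the core genes on the same arrays, and below that of H2-Aa (0.984).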

How the data were processed

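RNA of 28 samples was hybridised to Affymetrix arrays of 2 types, per the labels' protocols. The authors deposited log2 expression values per probe set, made with RMA per the submitters' processing notes (version not given in the sources used here). RMA normalizes arrays to each other and can remove shifts common to most genes. The sets of arrays that RMA normalized jointly are not named in the labels, and the 2 tables were never set against each other.

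The tables hold 28944 probe sets (liver and quadriceps; 21797 with 1 gene symbol, 1613 with several, 5534 with none) and 65956 (heart and gastrocnemius; 30604, 2146 and 33206). Symbols were updated through RefSeq (GRCm38.p6), which changed 23 and 1135. The probe set of highest mean stood for each gene. Probe sets of several genes were left out, except where named.

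Groups came from the labels. Each tissue was fitted separately in R 4.3.3 with limma 3.58.1 (two-sided, Benjamini-Hochberg over all genes, threshold 0.05). Tissue differences and interactions used a model of both tissues of a table. The code was tested on simulated data. Correlations used 100000 permutations. The members, lists and rules were chosen with earlier results of these data known. Named genes were all members, the 2 of smallest p of each list per tissue, defining markers and the 3 most alike per table. Other genes named for single arrays, for keeping a difference or as lineage checks were chosen after their values were seen.

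Alternatives were other scalings (quantile, loess, median), leaving out dim genes (mean below the median of all values at both ages), averaging or testing all probe sets, array weights, a robust prior with an intensity trend, both tissues in 1 fit, replicate numbers as a block, a 1.5-fold minimum and leaving out each array. Removing the replicate 1 arrays from list medians and likeness was chosen after seeing the data.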

Additional observations from a re-analysis of the deposited data

Results flagged for a closer look

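In groups of 4 arrays, the gap between an extreme array and its nearest neighbour was divided by the range of the group and set against Dixon's 95% critical value. It was above that value in 3 of 40 groups (10 genes, 2 tissues and 2 ages), and chance exceeds it in about 1 in 20. The 10 genes were read on the same arrays, so the 40 groups are not independent. In all 3 groups above the value the extreme is the 24-month replicate 1 array of gastrocnemius. H2-Ab1 read 9.01 there, against 8.10 to 8.18 on the other old arrays (gap over range 0.912). H2-Eb1 read 7.74, against 7.01 to 7.06 (0.932). H2-Ob read 5.92, against 4.67 to 4.76 (0.928).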

How the results depend on the processing

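The count of members past the threshold stayed 0 in quadriceps, heart and gastrocnemius under every alternative tried. In liver it was 1 of 6 tested with dim genes left out (H2-DMa; 17% of all genes), and 2 of 9 (H2-DMa and H2-Oa) with a trend and robust prior (11.3% of all genes), in a joint fit with quadriceps (18.2%) or with array weights (39.6%). Leaving out single liver arrays gave 0 to 2, with 2 without the 24-month replicate 3 array (25.5%). The members' median with array weights was 0.085 in liver and 0.15 in gastrocnemius, and 0.29 in liver without the 24-month replicate 2 array. The count of all liver genes called, 65, ranged from 0 to 7897 over the alternatives, and that of quadriceps, 1, from 0 to 18. That of heart, 2, ranged from 0 to 25, and that of gastrocnemius, 3, from 0 to 829. With every probe set tested, 49 heart probe sets passed. After centring, 347 of 1960 called liver genes were higher at 24 months, against 28 of 65 as deposited. Genes with an age by tissue difference numbered 3 (0 to 1462) in the liver and quadriceps table and 179 (22 to 547) in the other. The age by tissue count for liver and quadriceps was 0 to 1 over single arrays left out. It was 1 without the liver 24-month replicate 3 array (7.34% of all genes). The tissue count for heart and gastrocnemius was 4 after quantile normalization (62% of all genes) and 4 after centring (63.4%). The quadriceps members' median ran from -0.14 to 0.045 over single arrays left out.

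Signs of small differences turned. Centring gave -0.073 for H2-Ab1 and -0.0033 for Ctss in liver, -0.0175 for H2-Ob and -0.0050 for Ciita in heart, and -0.015 for H2-DMa in gastrocnemius. Array weights gave -0.14 for H2-Ab1 in liver and -0.0074 for H2-DMa in gastrocnemius. In heart quantile normalization gave -0.017 for H2-Ob and -0.0030 for Ciita, and loess -0.015 and -0.0032. For liver against quadriceps at 6 months, quantile normalization gave -0.31 for H2-Aa, -0.30 for H2-Eb1 and -0.22 for Cd74, and centring -0.097, -0.090 and -0.0033. The cause of these turns was not tested.

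With single arrays left out, these ranges crossed 0. Differences in liver ran from -0.12 to 0.14 for H2-Ab1. Differences in quadriceps ran from -0.16 to 0.078 for H2-Aa, -0.19 to 0.12 for H2-Ab1, -0.14 to 0.052 for H2-Eb1, -0.15 to 0.045 for Cd74, -0.0017 to 0.033 for Ciita and -0.01 to 0.15 for H2-Oa. Differences in heart ran from -0.018 to 0.036 for H2-Ob and -0.038 to 0.048 for Ciita. Differences in gastrocnemius ran from -0.04 to 0.043 for H2-DMa, -0.072 to 0.18 for H2-Oa, -0.0092 to 0.41 for H2-Ob and -0.0092 to 0.21 for Ciita. Those of liver against quadriceps at 6 months ran from -0.12 to 0.12 for H2-Aa, -0.08 to 0.12 for H2-Eb1 and -0.19 to 0.12 for H2-Ab1.

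Replicate numbers were not shown to pair arrays of the 2 ages, since deviations of same-numbered arrays did not correlate above 0.1 throughout any tissue. In gastrocnemius these correlations were 0.129, -0.0446, 0.214 and 0.299. Whether tissues of 1 replicate number came from 1 animal is not stated in the labels, and the main tests between tissues treated their arrays as independent. Same-numbered heart and gastrocnemius arrays correlated at 0.189, 0.00771, 0.168 and 0.0169 at 24 months. The other pairs between tissues lay from -0.114 to 0.0622. With the replicate number as a block, 0 members and 0 genes of any kind passed between the ages in each tissue. With the block, 0 members differed in their age difference between tissues (12 genes in the liver and quadriceps table and 201 in the other did). At 6 months 4 of 9 members differed between liver and quadriceps (67.4% of all genes) and 8 of 9 between heart and gastrocnemius (75.3%).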
